A study of Arabidopsis thaliana with 18 samples.

Results

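The core and linker histone genes of Arabidopsis were followed in leaf mesophyll protoplasts, cells freed of their walls, as they re-entered division. The 42 loci were taken from a list of histone genes that was chosen with earlier results of these data known. They were 4 canonical H2A, 2 H2A.X, 4 H2A.Z, 3 H2A.W, 10 H2B, 5 H3.1, 3 H3.3, 8 H4 and 3 linker H1 genes, out of 24532 genes counted. Each was read as its lowest-numbered splice variant. Of the 42, 41 had enough reads to be tested. HTA4, an H2A.Z gene, had 1 to 6 reads in each library and was not tested. Messenger RNA was sequenced from wild-type (WT, Col-0) protoplasts and from protoplasts of the *nph4-1 arf19-1* double mutant, which lacks the auxin response factors ARF7 and ARF19, either freshly isolated (Day 0) or after 4 or 6 days in alginate gels in the dark with the synthetic auxin 2,4-D and the cytokinin thidiazuron. All plants were 23 days old and each of the 6 groups had 3 libraries, for 18 in all. Protoplasts of many leaves were pooled for a culture. The labels of the 3 mutant Day 6 libraries also carry the treatment name yucasin, an inhibitor of auxin biosynthesis, which their titles do not, so at Day 6 the genotype and this treatment cannot be told apart.

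Histones package DNA into nucleosomes, each a core of H2A, H2B, H3 and H4 around which the DNA is wrapped, with H1 bound where the DNA enters and leaves. Canonical H2A, H2B, H3.1 and H4 are made mostly in S phase and deposited behind replication forks, whereas variants such as H3.3 and H2A.Z are also placed on chromatin outside S phase. H2A.X marks DNA breaks once it is phosphorylated, and H2A.W is a plant H2A of heterochromatin. In plants, histone messages carry poly(A) tails, so a poly(A) library such as these can capture replication-coupled genes. Below, 27 genes (H2A, H2B, H3.1 and H4) are called replication-coupled, 12 (H2A.X, H2A.Z, H2A.W and H3.3) variant and 3 linker. Genes for which the reference gives no symbol are written by locus and class.

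Total mapped reads ranged from 3438524 to 12119944 per library. Levels are given as CPM, tag counts scaled to a common library size and by TMM (trimmed mean of M values, edgeR), and a gene was called at a false discovery rate (FDR) below 0.01 over 25202 splice variants. ARF7 was at 152 to 165 CPM in WT Day 0 libraries and 36.9 to 49.4 CPM in mutant ones, and ARF19 was at 68.7 to 81.5 CPM in WT and 7.12 to 10.2 CPM in mutant libraries at Day 6. At Day 0 ARF19 did not separate the genotypes, with 6.91 to 11.2 CPM in WT and 10.1 to 13.1 CPM in mutant libraries. Summed markers of mesophyll were at 1005 to 3151 CPM at Day 0 and 207 to 590 CPM at Days 4 and 6. The 3 guard cell markers summed to 0.610 to 1.68 CPM at Day 0 and 4.04 to 12.6 CPM later, with 1 of 3 at 0 in the WT and 2 of 3 at 0 in the mutant Day 0 libraries. The 3 epidermal markers summed to 0 to 1.16 CPM at Day 0 and 0.577 to 6.19 CPM later, and the 3 phloem and vascular markers to 0.435 to 2.00 CPM at Day 0 and 8.80 to 49.7 CPM later, with the mutant below WT at Day 4 (8.80 to 12.6 against 14.9 to 19.9 CPM) and at Day 6 (13 to 16.0 against 37.9 to 49.7 CPM). At Day 6 the genotypes also did not overlap in mesophyll (207 to 349 CPM in the mutant and 400.5 to 590 CPM in WT), guard cell (7.86 to 9.08 and 4.04 to 7.61 CPM) and epidermal markers (2.09 to 2.96 and 0.577 to 1.22 CPM). The members of a sum did not all go one way in the mutant against WT. Of the phloem and vascular markers, SUC2 was lower at Day 4 (log2 -4.58) and Day 6 (-4.17). ATHB8 was at 0.56 (FDR = 0.081) and -0.38 (FDR = 0.14). At Day 6 the mesophyll marker RBCS1A was lower (-1.26, FDR = 0.0018) and CA1 was at 1.18 (FDR = 0.010). The guard cell markers MYB60 and FAMA were at -0.91 (FDR = 0.046) and 0.87 (FDR = 0.011). The trichome marker was at 0 to 0.470 CPM throughout. Their part in the histone results was not tested.

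The genes of one class can differ in sequence outside the coding region while encoding the same protein. All 5 H3.1 genes encode 1 protein, as do the 3 H3.3 genes and the 8 H4 genes, and H3.1 and H3.3 differ at 4 of 136 residues, whereas the 10 H2B genes encode 10 different proteins. Because reads were kept only where they matched one place, each locus was checked for windows of 50 bases found nowhere else in the genome. For 30 of the 42 genes every window was unique. The 6 genes below 95% were all H4 genes, the lowest being AT1G07660 with 69.2%, AT3G46320 with 72.1% and AT3G45930 with 74.3%, so levels of these genes are lower limits. In addition, 10 genes overlap another annotated gene. HTA12 (H2A.W) and AT5G02570 (H2B) overlap each other on opposite strands, and AT3G27360 (H3.1) overlaps a gene on its own strand. The kit keeps strand, but whether the counting used it is not given in the sources used here, so values of these 10 genes are uncertain to that extent.

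The plant histone octamer CGCGGATC is a promoter element known from cereal and Arabidopsis histone genes. The 250 bases before the annotated start of each gene were searched for it on both strands. It was present at 10 of the 42 histone genes (23.8%) and at 37 of all 27443 protein-coding genes (0.135%). It lay before 3 of 5 H3.1, 2 of 4 H2A, 2 of 8 H4, 1 of 3 H2A.W, 1 of 3 H3.3 and 1 of 3 H1 genes, and before none of the 10 H2B genes. Of the 10 genes with an octamer, 6 were picked for their change in culture. These were 3 H3.1 genes, an H2A.W gene and an H4 gene that rose and an H3.3 gene that did not. The last 150 bases before their starts are shown, with the octamer in capitals. Each runs 5′ to 3′ on the gene's own strand, from RefSeq (TAIR10.1). They lie at chr1:2972335-2972484 (minus strand, AT1G09200), chr5:3270958-3271107 (minus, AT5G10400), chr5:26120582-26120731 (minus, AT5G65360), chr5:24116221-24116370 (minus, HTA6), chr5:24051324-24051473 (plus, AT5G59690) and chr4:18558946-18559095 (minus, AT4G40040).
AT1G09200 (H3.1): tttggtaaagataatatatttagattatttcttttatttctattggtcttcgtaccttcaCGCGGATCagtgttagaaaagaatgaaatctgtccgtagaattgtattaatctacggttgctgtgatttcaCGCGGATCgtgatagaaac
AT5G10400 (H3.1): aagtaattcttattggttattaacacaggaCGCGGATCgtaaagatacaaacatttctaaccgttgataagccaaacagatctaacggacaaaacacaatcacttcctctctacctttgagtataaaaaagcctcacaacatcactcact
AT5G65360 (H3.1): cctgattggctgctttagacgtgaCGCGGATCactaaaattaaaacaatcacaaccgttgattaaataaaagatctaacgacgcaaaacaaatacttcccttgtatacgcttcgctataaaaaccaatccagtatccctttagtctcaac
HTA6 (H2A.W): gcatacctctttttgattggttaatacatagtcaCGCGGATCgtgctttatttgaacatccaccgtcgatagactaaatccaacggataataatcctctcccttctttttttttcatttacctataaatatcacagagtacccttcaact
AT5G59690 (H4): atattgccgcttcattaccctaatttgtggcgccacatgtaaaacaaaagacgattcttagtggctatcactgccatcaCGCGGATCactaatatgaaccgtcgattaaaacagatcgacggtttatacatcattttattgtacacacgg
AT4G40040 (H3.3): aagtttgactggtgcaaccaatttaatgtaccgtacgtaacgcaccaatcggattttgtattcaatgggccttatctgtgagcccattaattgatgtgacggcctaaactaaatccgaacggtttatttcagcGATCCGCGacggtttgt

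In AT1G09200 the octamer is repeated, beginning 90 and 19 bases before the start. In the H3.3 gene AT4G40040 it reads on the other strand, as its reverse complement, 17 bases before the start. HTA10, a canonical H2A gene, also has 2 copies, at 74 and 10 bases. An E2F site, written TTTCCCGC or TTTGGCGC and bound in plants by E2F factors that act at the entry to S phase, was found on either strand at 2 of 42 histone genes, the H4 genes AT3G46320 and AT3G45930, and at 0.958% of all promoters of this length. The core AACGG of the mitosis-specific activator element, which MYB3R proteins bind, was found at 21 of 42 histone genes and at 20.6% of all promoters, and the matches to these motifs overlapped at none of the histone genes. A match describes the letters only. The 10 genes with an octamer changed by a median log2 of 1.5 between WT Day 0 and Day 4, with a range of -0.72 to 4.54, and the 31 tested genes without one by 1.09, with a range of -1.71 to 4.80. Of the 10, 6 rose and 2 fell, and of the 31, 23 rose and 7 fell. Among the octamer genes not shown above, HTA13 fell, HTA10 and AT1G07660 were not called and AT1G06760 rose.

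**Figure D1:**
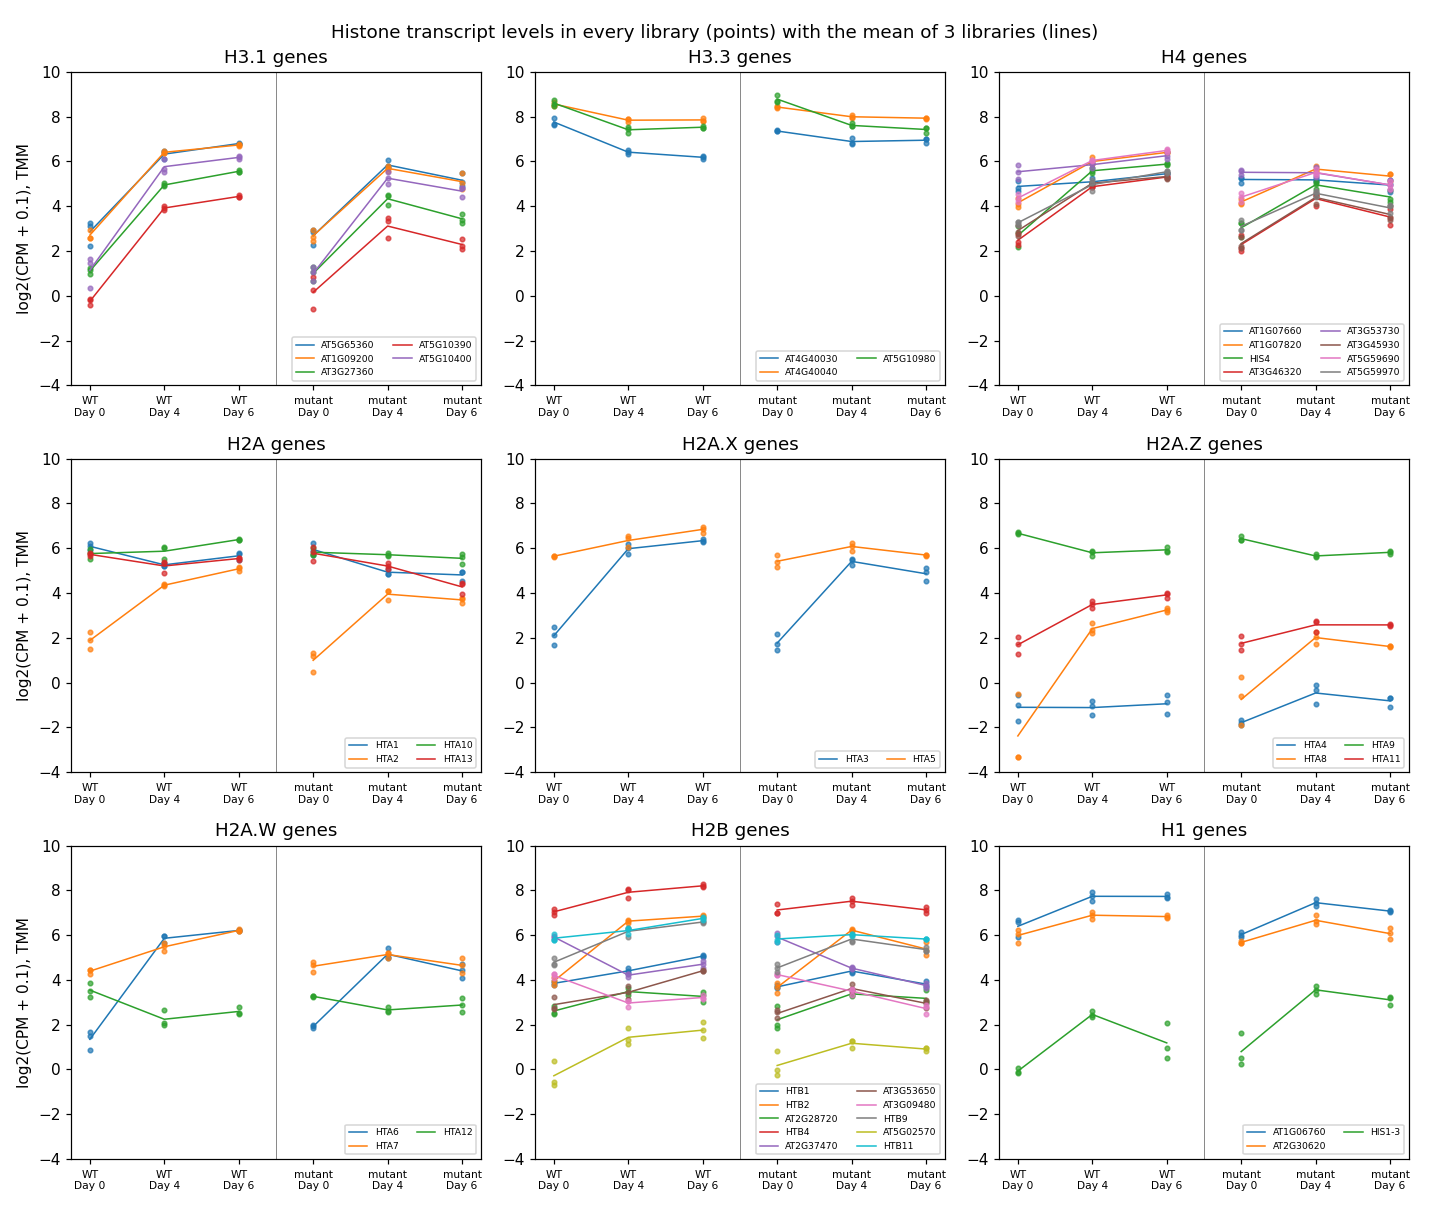
Level of each histone gene, as log2(CPM + 0.1) after TMM scaling, in the 6 groups, with 1 panel per class. Points are single libraries and lines join the means of 3 libraries within a genotype. All 5 H3.1 genes climb between Day 0 and Day 4, the 3 H3.3 genes start highest and fall, and the H2A and H2B panels hold genes that go both ways.

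From Day 0 to Day 4 in WT, the H3.1 genes rose together and by more than most other histone genes, while the 3 H3.3 genes fell on the TMM scale. Of 41 tested histone genes 29 rose, 9 fell and 3 were not called, or 92.7% called, against a background of 79.5% of all variants tested (42.6% higher and 37% lower). The median log2 change was 1.31 for the histone genes and 0.23 for all variants. Replication-coupled genes had a median of 1.68 (20 of 27 rose and 4 fell) and variants 0.72 (6 of 11 rose and 5 fell), a difference of 0.97. By the limits the study used (|log2 fold change| above 2 and FDR below 0.01), 14 histone genes rose and none fell, against 24.9% and 14.5% of all variants. The cultures were not synchronised and each library is bulk RNA, so fewer cells in S phase and less RNA per cell cannot be told apart, here or in the other comparisons.

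AT5G65360, the H3.1 gene with the most reads, was at 4.62, 8.53 and 9.35 CPM in WT Day 0 libraries and at 68.1, 89.0 and 85.0 CPM at Day 4. All Day 4 libraries were above all Day 0 ones, as in 28 of the 41 tested histone genes and 45.8% of all variants. The change was 3.41 ± 0.20 (log2 ± SE, FDR = 3.0e-12). AT5G10400 rose most among the H3.1 genes, from 1.15, 3.02 and 2.64 CPM to 45.5, 69.7 and 50.7 CPM, by 4.54 ± 0.24 (FDR = 6.0e-13). The other 3 H3.1 genes rose by 3.68 to 4.32, the highest of these being AT5G10390, with 4, 5 and 4 reads in the WT Day 0 libraries. The 5 H3.1 genes differed in level although they encode the same protein: at WT Day 4 AT5G10390 was at 14.2 to 16.2 CPM and AT1G09200 at 82.2 to 89.0 CPM.

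The H3.3 genes encode the H3 that is deposited independently of replication. AT4G40040 was at 368, 409 and 360 CPM at WT Day 0 and at 234, 217 and 238 CPM at Day 4, a fall by 0.72 ± 0.09 on the log2 scale (FDR = 4.3e-07). AT4G40030 went from 199, 246 and 207 CPM to 84.4, 90.3 and 81.0 CPM, a fall by 1.35 ± 0.10 (FDR = 1.4e-10), and AT5G10980 fell by 1.19 ± 0.11. In each of the 3 genes every Day 4 library was below every Day 0 library. This held for 9 of the 41 tested histone genes and for 39% of all variants. These directions depend on the scaling. With library totals alone the median of all variants moved from 0.23 to 1.26, AT4G40040 came to 0.31 (FDR = 0.0026), AT5G10980 to -0.16 (FDR = 0.12) and AT4G40030 to -0.32 (FDR = 0.0054), and the histone split came to 34 higher and 2 lower. Per kilobase of transcript AT5G10980 was the highest of the 42 genes at WT Day 0, at 477 ± 44.7 CPM per kb (SD, n = 3), followed by AT4G40040 at 351 ± 24.1 and AT4G40030 at 230 ± 26.7, and the libraries of these genes did not overlap. At Day 4 AT4G40040 (213 ± 10.5), AT5G10980 (209 ± 17.6) and the H2B gene HTB4 (189 ± 29.9) overlapped.

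The share of H3 reads that came from H3.1 genes does not depend on scaling between libraries. Fresh WT protoplasts gave 1.52, 1.95 and 2.21%, which became 33.8, 37.8 and 34.7% by Day 4 and then 42.5, 42.4 and 42.1% by Day 6. Fresh mutant protoplasts gave 1.49, 2.24 and 1.77%, followed by 24.9, 21.1 and 25.0% by Day 4 but 16.6, 19.7 and 15% by Day 6. The genotypes overlapped when fresh, and at either later time the highest mutant share was below the lowest WT share. The exact 95% binomial intervals, which cover counting error only, were narrow, the widest Day 6 one being that of the mutant Day 6 library with 349 of 2319 reads (13.6 to 16.6%). The shares are given as a description with no test. Reads are counted, not molecules, and the genes differ in length.

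**Figure D2:**
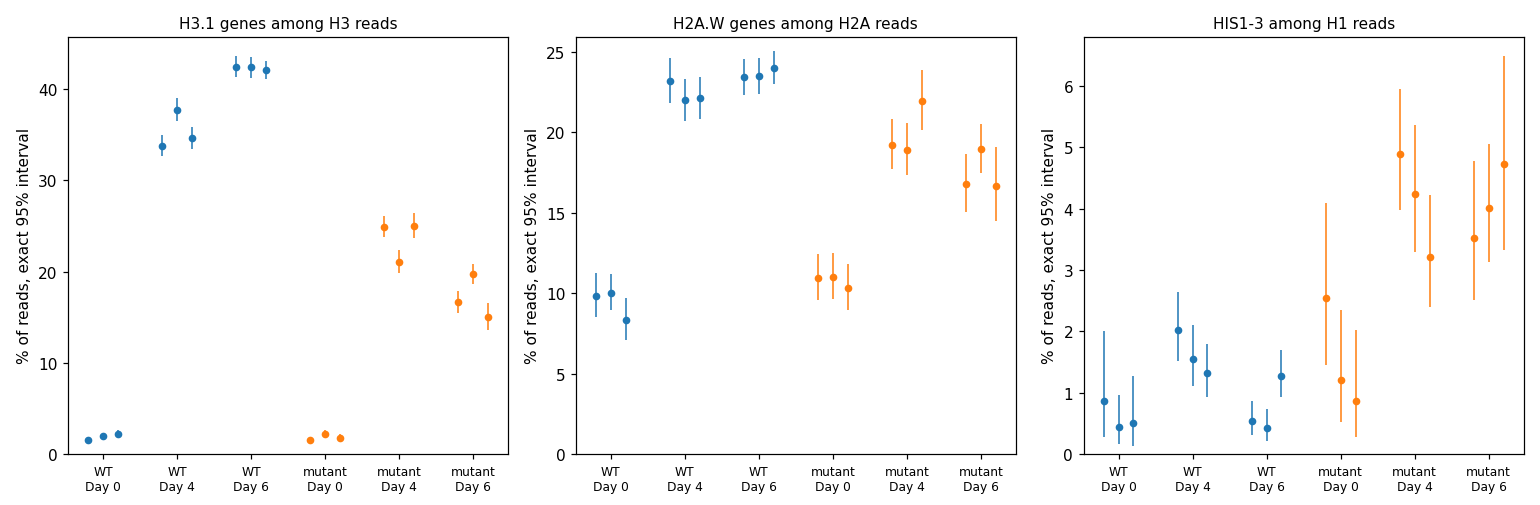
Share of H3 reads from the 5 H3.1 genes (left), of H2A reads from the 3 H2A.W genes (middle) and of H1 reads from HIS1-3 (right), in percent of reads. Each point is 1 library with its exact 95% binomial interval, WT in blue and mutant in orange. The H3.1 share in WT is higher at Day 6 than at Day 4, at 42.1 to 42.5%, and is lower at Day 6 than at Day 4 in the mutant, while HIS1-3 takes a larger share in mutant than in WT libraries at Days 4 and 6.

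Variant H2A genes did not move as classes. In each of H2A.X, H2A.Z and H2A.W one gene with few reads at Day 0 rose strongly and another changed far less or fell. HTA3, an H2A.X gene, was at 3.08, 5.51 and 4.27 CPM at WT Day 0 and 53.7, 73.1 and 64.0 CPM at Day 4 (3.84 ± 0.19, FDR = 2.2e-13), while HTA5, the other H2A.X gene and the one with more reads, rose by 0.72 ± 0.14. HTA6 (H2A.W) went from 1.73, 2.76 and 3.05 CPM to 50.5, 61.4 and 62.6 CPM (4.51 ± 0.20, FDR = 3.6e-14), HTA7 rose by 1.09 ± 0.14 and HTA12 fell by 1.31 ± 0.21. HTA8 (H2A.Z) had 0, 0 and 3 reads in the WT Day 0 libraries and 40, 47 and 39 at Day 4. Relative to TMM-scaled library sizes the ratio was 31.0, with an exact 95% counting interval of 10.4 to 152. HTA9, the H2A.Z gene with the most reads, fell by 0.87 ± 0.09, from 104, 99.3 and 102 CPM to 50.6, 57.7 and 58.7 CPM. With library totals it came to 0.16 (FDR = 0.13). HTA11, the other tested H2A.Z gene, rose by 1.76 ± 0.20.

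As shares of all H2A reads, H2A.X went from 14.5 ± 0.180% at WT Day 0 to 30.2 ± 1.49% at Day 4 (SD, n = 3), H2A.W from 9.39 ± 0.931% to 22.4 ± 0.659%, canonical H2A from 47.9 ± 2.02% to 32.2 ± 0.790% and H2A.Z from 28.2 ± 1.75% to 15.1 ± 0.624%. For each of the 4 shares the Day 0 and Day 4 libraries did not overlap. So among the variant classes H2A.X and H2A.W gained read share and H2A.Z lost it.

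Canonical H2A genes were as divided. HTA2 rose from 2.69, 3.67 and 4.67 CPM to 20.2, 19.9 and 20.9 CPM (2.46 ± 0.18, FDR = 6.4e-11). HTA1 fell by 0.84 ± 0.14 and HTA13 by 0.50 ± 0.15 (a call lost without any one WT Day 0 library, at -0.48 to -0.45, or without WT Day 4 replicate 1, at -0.36), and HTA10, the most read of the 4, was not called at 0.11 ± 0.14 (FDR = 0.49). With library totals HTA1 came to 0.19 (FDR = 0.16) and HTA13 to 0.52 (FDR = 0.0025). Of the H2B genes 8 of 10 rose and 2 fell, and of the 8 the calls of AT3G53650 (0.56 ± 0.18, FDR = 0.0070) and HTB11 (0.34 ± 0.10, FDR = 0.0050) were each lost on leaving out any of 4 libraries. HTB2 rose most, from 13.5, 15.5 and 17.3 CPM to 100, 101 and 94.4 CPM (2.68 ± 0.14, FDR = 2.5e-13), whereas HTB4, which had the most reads of any H2B gene, rose by 0.88 ± 0.14. AT2G37470 went from 63.1, 57.5 and 60.8 CPM to 19.2, 18.9 and 17.2 CPM, a fall by 1.71 ± 0.12 (FDR = 2.8e-11) and the lowest value of all tested histone genes, and AT3G09480 fell by 1.24 ± 0.13. Without H2B the difference between the replication-coupled and variant medians was 1.40.

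Of the H4 genes 6 of 8 rose, and the other two, AT1G07660 (0.19 ± 0.13, FDR = 0.18) and AT3G53730 (0.29 ± 0.15, FDR = 0.077), were not called. HIS4 had the highest H4 change, 2.86 ± 0.18, from 4.42, 6.82 and 8.54 CPM to 47.2, 51.7 and 45.0 CPM. These were also the H4 genes with the most reads at WT Day 0, with AT3G53730 at 37.5, 58.0 and 45.9 CPM and AT1G07660 at 25.8, 35.0 and 28.2 CPM, and per kilobase their libraries overlapped. All 3 linker genes rose. AT1G06760 went from 60.2, 102 and 95.9 CPM to 186, 215 and 240 CPM (1.31 ± 0.15, FDR = 8.4e-08), and HIS1-3, a linker histone known to be induced by drought, went from 0.962, 0.787 and 0.813 CPM to 6.07, 5.26 and 4.91 CPM (2.65 ± 0.41, FDR = 6.0e-06), with 4 to 6 reads in each Day 0 library.

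**Figure D3:**
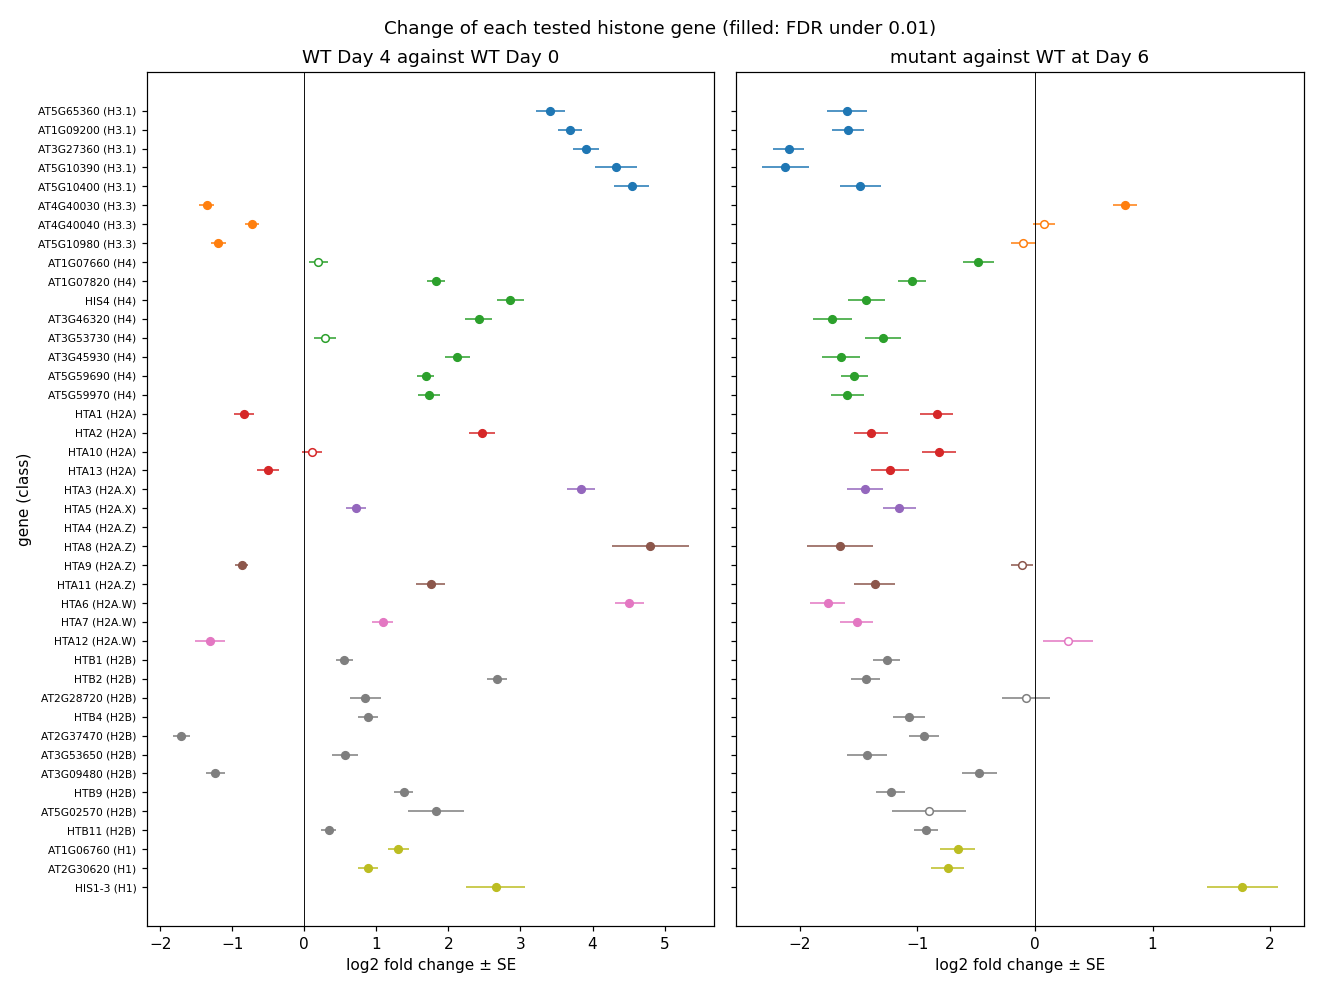
Log2 fold change with its standard error for the 41 tested histone genes, in WT Day 4 against WT Day 0 (left) and in the mutant against WT at Day 6 (right). Filled points passed FDR below 0.01, and HTA4 was not tested. On the left H3.1, HTA3, HTA6 and HTA8 lie above 3 and H3.3 below 0, and on the right 33 genes lie below 0 as filled points while HIS1-3 (1.76) and AT4G40030 (0.77) lie above it.

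The mutant protoplasts raised most of the same histone genes between Day 0 and Day 4. Of 41 tested genes 26 rose and 8 fell, or 82.9% called, against 75% of all variants (39% higher and 36.1% lower). All 26 were among the 29 that rose in WT, and all 8 were among the 9 that fell in WT. The overlap of calls over all variants is not given here, and 12.8% of all variants were called as changing differently in the genotypes. By the study's limits 13 rose and none fell, against 20.5% and 12.2% of all variants. The medians were 1.13 for replication-coupled genes, 0.52 for variants, and 1.43 for linker genes. AT5G10400 had the highest value, going from 1.49, 2.33 and 1.96 CPM to 38.0, 31.3 and 46.2 CPM (4.29 ± 0.27, FDR = 7.8e-12), and the 5 H3.1 genes ranged from 2.97 to 4.29. HTA3 rose by 3.67 ± 0.21. AT2G37470 (-1.40 ± 0.12) and AT5G10980 (-1.18 ± 0.11) were the lowest. With library totals the split came to 34 higher and 1 lower, the median of all variants moved from 0.18 to 1.19, and AT5G10980 came to -0.16 (FDR = 0.14). Of the 8 genes that fell, HTA9 (0.24), HTA13 (0.44), AT3G09480 (0.29), AT4G40030 (0.55) and AT4G40040 (0.58) were then above 0. Leaving out mutant Day 0 replicate 2 took the difference between the replication-coupled and variant medians from 0.61 to 0.99.

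Whether the rise itself differed between genotypes was tested as an interaction. It was called for 2 of 41 histone genes (4.88%), below the background of 12.8% (6.73% higher and 6.09% lower), and for none past a log2 difference of 2 (0.805% and 1.95% of all variants). AT4G40030 (H3.3) had a higher change in the mutant than in WT, by 0.89 ± 0.14 (FDR = 0.00023). In the mutant its levels went from 162, 168 and 162 CPM to 111, 114 and 132 CPM, a change of -0.47 ± 0.10 (FDR = 0.00031) that became 0.55 (FDR = 4.5e-05) with library totals, whereas the difference between genotypes was then 0.87 (FDR = 0.00024). HTA6 (H2A.W), named after its value was seen, rose less in the mutant, with a difference of -1.25 ± 0.32 (FDR = 0.0081). This call was lost on leaving out any one of the 12 libraries other than WT Day 4 replicate 1 and mutant Day 4 replicate 3, with values from -1.36 to -1.05, and 1 to 3 histone genes were then called in all. HTA8 had the lowest value, -2.05 ± 0.93 (FDR = 0.12), on 3 reads at WT Day 0 and 9 at mutant Day 0.

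In freshly isolated protoplasts few histone messages separated mutant from WT. AT4G40030 alone was called, 1 of 41 (2.44%) against 8.25% of all variants (6.4% higher and 1.84% lower), at 162, 168 and 162 CPM in the mutant and 199, 246 and 207 CPM in WT (-0.41 ± 0.10, FDR = 0.0085). An unadjusted edgeR p below 0.05 was seen for 7 genes, and the share of all variants under that limit is not given here. None passed the study's limits, as 1.28% and 0.0595% of all variants did. Leaving out any library but WT Day 0 replicate 1 gave 0 calls, and without that replicate there were 2. HTA2 was at 1.31, 2.16 and 2.39 CPM in the mutant and 2.69, 3.67 and 4.67 CPM in WT (-0.91 ± 0.27, FDR = 0.027), which was the lowest value of the list. The highest were those of HTA8 (1.63 ± 0.88, FDR = 0.23) and HIS1-3 (1.08 ± 0.53, FDR = 0.18), both on few reads. The H4 gene AT3G45930 was at -0.56 ± 0.22 (FDR = 0.098).

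Between genotypes at Day 4 histone genes were called about as often as all variants. Of 41 genes 9 were lower in the mutant (3 of 5 H3.1, 3 of 8 H4, and 1 each of H2A.X, H2A.Z and H2A.W) and 3 higher, 29.3% called against 27.8% of all variants (14.8% higher and 13% lower). None passed the study's limits (1.52% and 1.8% of all variants). HTA11 (H2A.Z) had the lowest value, at 6.49, 4.75 and 6.60 CPM in the mutant and 9.85, 12.5 and 11.2 CPM in WT (-0.91 ± 0.18, FDR = 0.00051). AT1G09200 (H3.1) was at 55.4, 47.4 and 52.4 CPM against 83.5, 89.0 and 82.2 CPM (-0.71 ± 0.13, FDR = 0.00023). In both genes all mutant libraries were below all WT ones, as in 16 of the 41 tested histone genes and 24.8% of all variants. The H3.1 gene AT5G10390 was lower by -0.75 ± 0.19 (FDR = 0.0030), a call that was lost without WT Day 4 replicate 3 (-0.70) or mutant Day 4 replicate 2 (-0.53). The 3 higher genes were HIS1-3, AT4G40030 and AT3G09480. HIS1-3 was at 13.3, 11.6 and 10.3 CPM in the mutant and 6.07, 5.26 and 4.91 CPM in WT (1.12 ± 0.26, FDR = 0.0021), and this call was lost without mutant Day 4 replicate 1 (1.01). AT4G40030 was higher by 0.48 ± 0.10 (FDR = 0.00098). AT3G09480 was higher by 0.54 ± 0.14 (FDR = 0.0038), and its call was lost without WT Day 4 replicate 3 (0.47), mutant Day 4 replicate 1 (0.51) or mutant Day 4 replicate 2 (0.49). With library totals the split was 1 higher and 22 lower, with the median of all variants at -0.15 in place of -0.01.

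Between Day 4 and Day 6 the genotypes parted, though the yucasin label of the mutant Day 6 libraries cannot be told apart from genotype. In WT 12 of 41 histone genes rose and 1 fell, 31.7% called against 21.1% of all variants (9.27% higher and 11.8% lower), with a median of 0.39 against 0.01 for all variants. In the mutant none rose and 17 fell, 41.5% called against 19.4% (10.7% higher and 8.65% lower), with a median of -0.47 against -0.01. By libraries, 30 genes in WT had every Day 6 library above every Day 4 library, and in the mutant 32 had every Day 6 library below every Day 4 library. Of the variants tested these were 23.9% and 23.3%. No histone gene passed the study's limits in WT (0.643% and 1.32% of all variants) or in the mutant (1.35% and 0.29%). The counts depended on single libraries. The WT count of 13 went to 8 without WT Day 4 replicate 1 or 3 and to 7 without WT Day 6 replicate 1, and the mutant count of 17 went to 10 and 8 without mutant Day 4 replicate 1 or 3 and to 9 and 6 without mutant Day 6 replicate 1 or 3. With library totals 24 rose in WT and 25 fell in the mutant, and the medians of all variants came to 0.15 and -0.13. Of all variants called, 63.4% were then higher in WT and 37.5% in the mutant, in place of 44.0% and 55.3%.

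AT3G53650, an H2B gene, had the highest value in WT, from 8.82, 10.9 and 13.1 CPM at Day 4 to 21.3, 21.2 and 20.8 CPM at Day 6 (0.95 ± 0.15, FDR = 8.7e-05). In the mutant it went from 13.8, 12 and 10.9 CPM to 7.97, 8.57 and 6.55 CPM (-0.65 ± 0.18, FDR = 0.0099), a call that was lost on leaving out any mutant library but Day 4 replicate 3 (-0.75 to -0.55). The change differed between genotypes by -1.61 ± 0.24 (FDR = 6.7e-05), the largest such difference among the histone genes. AT3G27360, an H3.1 gene, went from 30.6, 29.5 and 32.4 CPM to 48.5, 46.1 and 46.6 CPM in WT (0.61 ± 0.12, FDR = 0.00043) and from 22.4, 16.5 and 21.9 CPM to 10.4, 12.7 and 9.43 CPM in the mutant (-0.88 ± 0.14, FDR = 0.00011). Its difference between genotypes was -1.49 ± 0.18 (FDR = 9.4e-06). In both genes the Day 4 and Day 6 libraries did not overlap in either genotype, and the directions were opposite.

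HTA13, a canonical H2A gene, was the lowest in the mutant, from 37.4, 40.0 and 33.4 CPM to 21.3, 21.8 and 15.4 CPM (-0.90 ± 0.16, FDR = 0.00033). In WT it went from 29.8, 42.3 and 39.9 CPM to 48.0, 47.2 and 44.3 CPM (0.32 ± 0.15, FDR = 0.10). Among the H4 genes, AT5G59690 went from 63.8, 66.0 and 67.7 CPM to 92.9, 85.8 and 91.0 CPM in WT (0.45 ± 0.11, FDR = 0.0033) and from 41.7, 44.4 and 50.7 CPM to 34.6, 30.8 and 27.2 CPM in the mutant (-0.55 ± 0.12, FDR = 0.0017). The WT call was lost without WT Day 4 replicate 1 or 2 or WT Day 6 replicate 1 or 3 (0.42 to 0.45), and the mutant call without mutant Day 6 replicate 3 (-0.46). HTB1 (H2B) went from 20.8, 22.9 and 19.6 CPM to 32.4, 34.1 and 33.3 CPM in WT (0.66 ± 0.10, FDR = 6.7e-05) and from 23.1, 19.5 and 20.4 CPM to 12.8, 13.7 and 15.4 CPM in the mutant (-0.60 ± 0.12, FDR = 0.00072). Its difference between genotypes was -1.26 ± 0.16 (FDR = 1.1e-05), and at Day 4 the genotypes had overlapped.

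AT2G37470, the H2B gene that had fallen most by Day 4, also moved in opposite directions in the genotypes after Day 4. It went from 19.2, 18.9 and 17.2 CPM to 26.2, 23.2 and 28.6 CPM in WT (0.49 ± 0.12, FDR = 0.0031) and from 22.2, 22.7 and 23.9 CPM to 13.3, 14.5 and 12.3 CPM in the mutant (-0.76 ± 0.13, FDR = 0.00023), with a difference of -1.26 ± 0.18 (FDR = 4.1e-05). The WT call was lost without WT Day 4 replicate 3 (0.44) or WT Day 6 replicate 1 (0.49) or 3 (0.42). HTB2, the H2B gene that had risen most, was not called in WT (0.22 ± 0.12, FDR = 0.15) and fell in the mutant from 77.6, 71.6 and 74.6 CPM to 40.0, 51.5 and 34.6 CPM (-0.81 ± 0.12, FDR = 6.6e-05).

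In the interaction test 24 of 41 genes had a lower change in the mutant and none a higher one, 58.5% called against a background of 12.1% (8.73% higher and 3.34% lower). None passed a log2 difference of 2 (2.3% and 0.508% of all variants). These were all 5 H3.1 genes, 6 of 8 H4, 7 of 10 H2B, 2 of 4 H2A, both H2A.X and 2 of 3 H2A.W genes, and no H2A.Z, H3.3 or H1 gene. The medians of the difference were -0.99 for replication-coupled genes, -0.46 for variants and -0.37 for linker genes, beside -0.03 for all variants. H3.3 genes ranged from -0.29 to 0.29. With library totals 31 genes were lower, none was higher, and the median of all variants was -0.28.

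**Figure D4:**
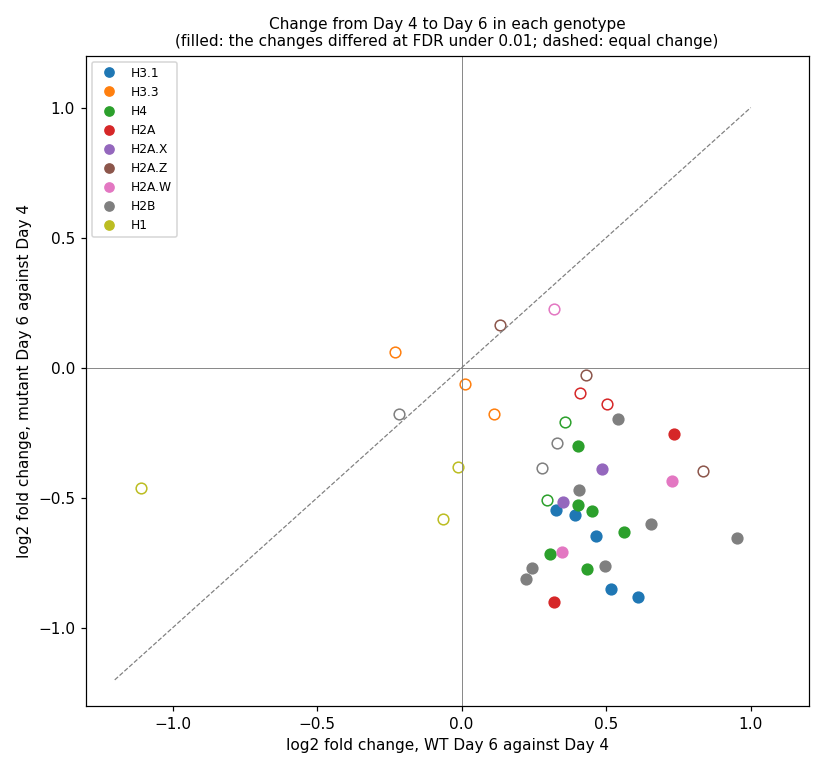
Log2 fold change from Day 4 to Day 6 in WT (horizontal) and in the mutant (vertical) for the 41 tested histone genes, coloured by class. Filled points are the 24 genes whose change differed between genotypes at FDR below 0.01, and the dashed line marks equal change. The filled points all lie in the lower right, up in WT and down in the mutant, with the 5 H3.1 genes among them, and the 3 H3.3 genes lie near the centre. The mutant Day 6 libraries also carry the yucasin label.

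Among the linker genes HIS1-3 changed most after Day 4 in WT. It had the lowest value of all histone genes from Day 4 to Day 6, from 6.07, 5.26 and 4.91 CPM to 1.85, 1.33 and 4.13 CPM (-1.11 ± 0.30, FDR = 0.0080). WT Day 6 replicate 3 stood above the other two. The call was lost without any one of WT Day 4 replicates 1 (-1.01), 2 (-1.13) and 3 (-1.18) or WT Day 6 replicates 1 (-0.95) and 2 (-0.82). AT1G06760 (-0.01 ± 0.14, FDR = 0.96) and AT2G30620 (-0.06 ± 0.14, FDR = 0.76) were not called. In the mutant HIS1-3 was at 7.22, 9.10 and 9.43 CPM at Day 6 (-0.46 ± 0.26 from Day 4, FDR = 0.19), and AT2G30620 fell by 0.58 ± 0.14 (FDR = 0.0040), a call lost without mutant Day 4 replicate 3 (-0.47), Day 6 replicate 1 (-0.58) or Day 6 replicate 3 (-0.46). HIS1-3 gave 0.423 to 1.27% of H1 reads in WT and 3.52 to 4.72% in mutant libraries at Day 6.

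At Day 6 mutant protoplasts, whose libraries also carry the yucasin label, had less message from most histone genes than WT protoplasts. Of 41 tested genes 33 were lower and 2 higher, 85.4% called against 47.4% of all variants (24% higher and 23.4% lower), and the median was -1.23 against -0.04. In 34 genes the highest of the mutant libraries was below the lowest of the WT ones, as in 34.7% of all variants. By class 5 of 5 H3.1, 8 of 8 H4, 4 of 4 H2A, 8 of 10 H2B, 2 of 2 H2A.X, 2 of 3 tested H2A.Z, 2 of 3 H2A.W and 2 of 3 H1 genes were lower, and none of the 3 H3.3 genes was. The replication-coupled median was -1.29 and the variant median -1.15, a difference of -0.14. This difference was -0.33 without H2B, -0.66 with no filter on low counts or with the most-read splice variants, and between -0.25 and -0.04 on leaving out 1 library. H3.1 genes were lower in the mutant by 1.48 to 2.12 and H4 genes by 0.48 to 1.72 on the log2 scale. Of the 29 genes that rose in WT between Day 0 and Day 4, 26 were lower in the mutant at Day 6, as were 4 of the 9 that had fallen. The same shares of all variants are not given here, so no contrast is drawn from these counts. Only AT5G10390 and AT3G27360, both H3.1, passed the study's limits, against 6.06% of all variants higher and 4.01% lower. With library totals 37 were lower and 2 higher, and the median of all variants was -0.43.

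AT5G10390 was at 4.63, 5.67 and 4.19 CPM in the mutant and 21.0, 21.5 and 22.3 CPM in WT at Day 6 (-2.12 ± 0.20, FDR = 2.2e-08). AT3G27360 was at 10.4, 12.7 and 9.43 CPM against 48.5, 46.1 and 46.6 CPM (-2.09 ± 0.13, FDR = 9.6e-11). AT5G65360 was at 33.9, 45.2 and 29.6 CPM against 111, 108 and 115 CPM (-1.60 ± 0.17, FDR = 1.3e-07). In all 3 H3.1 genes the groups did not overlap. The variant genes that had risen by Day 4 were lower too: HTA6 was at 21.5, 25.8 and 16.8 CPM against 72.0, 74.0 and 75.5 CPM (-1.76 ± 0.15, FDR = 4.8e-09), and HTA7, HTA8 and HTA3 were at -1.51, -1.65 and -1.44. HTB4 was at 154, 139 and 128 CPM against 308, 287 and 289 CPM (-1.07 ± 0.14, FDR = 1.3e-06), and HTA10 was lower by 0.81 on the same scale.

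Of the 8 tested genes that were not called lower, AT4G40030 (H3.3) was at 128, 129 and 114 CPM in the mutant and 69.8, 75.1 and 73.2 CPM in WT at Day 6 (0.77 ± 0.10, FDR = 2.7e-06). Its tandem neighbour AT4G40040, which encodes the same protein, was at 241, 246 and 245 CPM and 225, 221 and 249 CPM (0.08 ± 0.09, FDR = 0.50), with overlapping groups. With library totals AT4G40030 was at 0.37 (FDR = 0.0031), AT4G40040 at -0.32 (FDR = 0.0029) and AT5G10980 at -0.49 (FDR = 0.00019). HIS1-3 was at 7.22, 9.10 and 9.43 CPM in the mutant and 1.85, 1.33 and 4.13 CPM in WT (1.76 ± 0.30, FDR = 4.5e-05), while AT1G06760 was lower by 0.66 ± 0.15 (FDR = 0.00075) and AT2G30620 by 0.74 ± 0.14 (FDR = 0.00015). HTA9 (H2A.Z) was at 56.3, 58.7 and 54.2 CPM against 59.4, 57.8 and 65.8 CPM (-0.11 ± 0.09, FDR = 0.32). HTA12 was at 0.28 ± 0.21 (FDR = 0.27), AT2G28720 at -0.07 ± 0.21 (FDR = 0.77) and AT5G02570 at -0.90 ± 0.31 (FDR = 0.018), with its mutant libraries at 1.67 to 1.85 CPM and its WT libraries at 2.54 to 4.22 CPM. H2A.Z genes gave 20 to 23.3% of H2A reads in mutant and 12.5 to 14.2% in WT libraries at Day 6, and H2A.W genes 16.7 to 19% and 23.4 to 24.0%.

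Of 26 listed genes, most for histone chaperones and exchange factors, 12 rose and 9 fell between WT Day 0 and Day 4. Of all variants 42.6% rose and 37% fell. Chaperones and exchange factors carry histones to chromatin or swap variants into it. The list also held TSK and the histone methyltransferase genes ATXR5 and ATXR6. In the mutant at Day 6, 11 of the 26 were lower and none higher, where 23.4% of all variants were lower and 24% higher. The median of the 26 was -0.32 beside -0.04 for all variants. TSK (-1.28) and ATXR6 (-3.41) were among the 11, and ATXR5 was not called (0.37). In the interaction from Day 4 to Day 6 1 of the 26 was called, lower, where 12.1% of all variants were called. The tables also held 7 further histone genes outside the 42, and 4 of these passed the filter. At Day 6 edgeR called none of the 4, with 47.4% of all variants called at FDR below 0.01. An unadjusted p below 0.05 was seen for 3, a limit for which the share of all variants is not given here. The median of the 4 was -0.89, and HTR6 (-1.27, FDR = 0.025) and HTR11 (-1.02, FDR = 0.022) were below 0.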

How the data were processed

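Poly(A) RNA of 18 libraries was sequenced in single reads with a stranded kit. Per the labels and methods, the authors mapped reads to TAIR10 with Bowtie 0.12.9, kept unique matches and deposited raw tag counts per splice variant with the total of mapped reads, a line left out of the tests. Groups follow the sample titles. The lowest-numbered variant stood for each gene. The members and lists were chosen with earlier results of these data known. Counts were tested with edgeR 4.0.16 (quasi-likelihood, R 4.3.3) in one fit of all 18 libraries with 6 group means, the authors' totals as library sizes, TMM and edgeR's expression filter (minimum count 10, total 15), which kept 25202 of 32294 variants. FDR is the Benjamini-Hochberg adjusted p over those variants. The common biological coefficient of variation was 0.127. In simulated Day 6 counts, 55% of 100 genes changed by 1 on the log2 scale and 93% of 100 changed by 2 were recovered, with 3 false calls.

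The authors describe 3 biological replicates per time point. Replicates differed beyond sampling noise (chi-square per degree of freedom 4.35 to 19.1). Whether same-numbered libraries belong together is not given in the sources used here, and the main fit did not pair them. Named genes were those with the most reads in each class and the 2 highest and 2 lowest in each comparison. Other genes given by value were picked after their values were seen, to account for each class. Interactions are the mutant change minus the WT change. Locations, sequences and overlaps come from RefSeq TAIR10.1. Alternatives were library totals, summed variants as library size, DESeq2 1.42.0, other filters and variants, only the groups compared, a replicate block and leaving out each library. Read shares carry exact 95% binomial intervals (scipy 1.17.1).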

Additional observations from a re-analysis of the deposited data

Results flagged for a closer look

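Between Day 4 and Day 6 the change of 24 histone genes differed between genotypes (edgeR interaction test, FDR below 0.01, 12.1% of all variants called). Among the named genes these were HTA5 (-0.87), HTA7 (-1.16), AT3G53650 (-1.61), AT5G65360 (-1.11), AT3G27360 (-1.49) and AT3G53730 (-0.93), as the mutant change minus the WT change on the log2 scale. The call of HTA5 was lost without mutant Day 4 replicate 2 (-0.78), WT Day 6 replicate 1 (-0.79) or mutant Day 6 replicate 3 (-0.84), and that of AT3G53730 without mutant Day 4 replicate 3 (-0.79), WT Day 6 replicate 3 (-0.84) or mutant Day 6 replicates 1 (-0.92) or 3 (-0.83). Over Days 4 to 6 the yucasin label of the mutant Day 6 libraries cannot be told apart from genotype. Between Day 0 and Day 4 the change of 2 histone genes differed, among them AT4G40030 (0.89).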

How the results depend on the processing

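The study's limits left 14, 0, 13, 0, 0, 0, 2, 0 and 0 histone genes called in the order WT Day 4 against Day 0, WT Day 6 against Day 4, the same pair in the mutant, mutant against WT at Days 0, 4 and 6, and the interactions over Days 0 to 4 and 4 to 6. An FDR below 0.05 gave 22 for WT Day 6 against Day 4, 2 and 22 for genotype at Days 0 and 4 and 5 for the first interaction. Library totals gave 24 and 23 in WT Day 6 against Day 4 and genotype at Day 4, and turned HTA9 (0.16) and AT4G40040 (0.31) in WT and HTA10 (0.91), HTA9 (0.24), AT4G40040 (0.58) and AT3G53730 (1.00) in the mutant upward from Day 0 to Day 4 and AT4G40040 downward (-0.32) at Day 6. These are the genes named by rule for those comparisons. Library totals also turned HTA1 (0.19) and HTA13 (0.52) in WT and HTA13 (0.44), AT3G09480 (0.29) and AT4G40030 (0.55) in the mutant from Day 0 to Day 4. The genotype call at Day 0 went to 0 with no filter or only the groups compared, and the first interaction to 1 with only the groups compared and 4 with DESeq2. The replication-coupled minus variant median at Day 4 in WT was 1.40 without H2B, 1.36 with no filter and 1.49 with the most-read splice variants. It was 1.38 without H2B in the mutant, and -0.33, -0.66 and -0.66 at Day 6. In the settings with no filter or the most-read variants HTA4 was also tested.

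Leaving out 1 library gave 35 to 37, 7 to 10, 33 to 34 and 6 to 15 calls over time, 0 to 2, 8 to 16 and 33 to 34 for genotype, and 1 to 3 and 19 to 24 for the interactions. The median differences ranged from 0.84 to 1.03, 0.04 to 0.10, 0.59 to 0.99 and -0.44 to -0.27 over time, 0.02 to 0.10, -0.17 to 0.03 and -0.25 to -0.04 for genotype, and -0.24 to 0.00 and -0.62 to -0.39 for the interactions.

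Of 1894 alternative values for 116 gene results, 1808 kept their call and its direction or, with either sign, were uncalled as in the main fit. A further 45 lost and 34 gained the call, and 7 changed sign where the main or the alternative value was called. Same-numbered libraries correlated between -0.09 and 0.27, and in genotype at Day 6 alone did each correlate best with its own number. A replicate block gave 38, 14, 34, 16, 0, 12, 35, 3 and 25 calls. Few reads limit HTA4, HTA8, HIS1-3 and AT5G02570 (3, 4 and 6 reads in the WT Day 0 libraries), and at Day 0 also AT5G10390.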
